A study of Sus scrofa with 35 samples.

Results

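Muscle of F1 pigs, the cross of Large White and Creole, was compared with muscle of pure Creole pigs, 1 of its parent breeds. The samples were chosen by title: 11 F1 arrays (6 TN, 5 HS) and 12 Creole arrays (6 TN, 6 HS), 23 of the 35 arrays of the series, with temperature as a covariate, over all 40649 probes of the deposited table. Creole is a local Caribbean breed and Large White a breed selected for lean growth; which of them sired the cross could not be settled from the sources used here. Every pig was a castrated male kept at a research facility in Guadeloupe, and each array carried RNA of the longissimus dorsi, a muscle of the back. TN pigs (thermoneutral) were slaughtered before ambient temperature was raised and HS pigs (heat stress) 4 or 5 days after it. By label the TN pigs were at 24 °C and the HS pigs at 30 °C. The growth protocol and the study methods instead put the challenge at 32 °C, and why the labels differ is not known. Per the study methods the pigs were littermates in blocks of 4, with 3 blocks per breed, and the fits treat them as independent animals, so the p-values cover only the spread between these arrays. Replicate numbers only name arrays. The 12 Large White arrays entered the main fits, for the temperature term and the spread, and are given as levels beside some results.

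A muscle fibre makes ATP on a respiratory chain whose subunits come from both genomes: a few are encoded in the mitochondrial DNA, which is inherited from the mother, and the others in the nucleus. A cross inherits 1 copy of each autosomal gene from each parent breed but a single maternal type of mitochondrial DNA. A probe whose letters differ from those of a breed's transcript binds that transcript less, so a breed difference at 1 probe can be one of abundance or of sequence.

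The scanner marked 63.5% to 73.7% of the probes of an F1 array as well above background, and 63.9% to 75.9% of those of a Creole array. The spike-in controls, synthetic RNAs of known amount, were at 14.47 ± 0.09 (SD, n = 11) and 14.46 ± 0.12 (SD, n = 12) on the log2 scale. Of 10 markers of skeletal muscle 9 were measured (MB, myoglobin, was not). All 9 were at or above the 98.0th percentile of probes on every F1 and Creole array, and none was called, with F1 minus Creole differences between -0.08 and 0.16 log2. In whole muscle, fewer cells of a type and less RNA per cell cannot be told apart.

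Over both temperatures 207 of 40649 probes (0.509%) differed between F1 and Creole at a limma adjusted p below 0.05 (called probes, below). Of these 126 (0.310%) were higher in F1 and 81 (0.199%) lower. The called probes held a symbol in 114 cases, for 63 genes, and 93 had none. Differences were modest: the median absolute difference was 0.61 log2, and 38 called probes passed 1 log2, 28 higher and 10 lower. The share of higher calls, 60.9%, depended on the scaling: median scaling gave 93 higher and 90 lower and scaling to the spike-in controls 48 higher and 50 lower. All F1 arrays lay on 1 side of all Creole arrays for 5 probes (0.0123%).

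The respiratory chain genes encoded in mitochondrial DNA were higher in F1 at many, but not most, of their probes. Littermates share their mother's mitochondrial DNA, and the study methods give 3 blocks of littermates per breed. For these transcripts the arrays therefore stand for few mothers, which the p-values and array counts do not take into account. Of 127 probes for these 13 transcripts, 36 (28.3%) were called and all 36 were higher in F1, beside 0.310% of all probes called higher. The median difference was 0.19 log2 against -0.01 over all probes, and 109 of 127 lay above zero. Counted at 1 probe per gene, 3 of the 13 were called, with a median of 0.15 log2. Under 75th percentile scaling 12 of the 127 probes were called higher and none lower, and under array weights 55 higher and 2 lower. Without the array of Creole TN replicate 1 the count was 53.

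The probes of 1 transcript did not move together. ND2, a core subunit of complex I, had 11 of 12 probes called, with differences from 0.48 to 2.71 log2. ND1, another subunit of complex I, had 9 of 20 called. ND4, of the same complex, had none of 11 called, with differences between -0.22 and 0.30 log2. Among the subunits of cytochrome c oxidase COX2 had 3 of 5 called (0.42 to 2.65 log2), COX3 2 of 14 and COX1 1 of 25, the called COX1 probe at 2.03 log2 and the others between -0.05 and 0.80 log2. CYTB, the cytochrome of complex III, had 5 of 21 called. ATP6, a subunit of the ATP synthase, had 3 of 9 called with small differences of 0.19 to 0.22 log2. ND5 and ND6 had 1 called probe each, of 3 and 2, and none was called for ND3, ND4L or ATP8. The ND6 call was lost under 5 of 12 alternatives and without any 1 of 17 arrays.

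**Figure D1:**
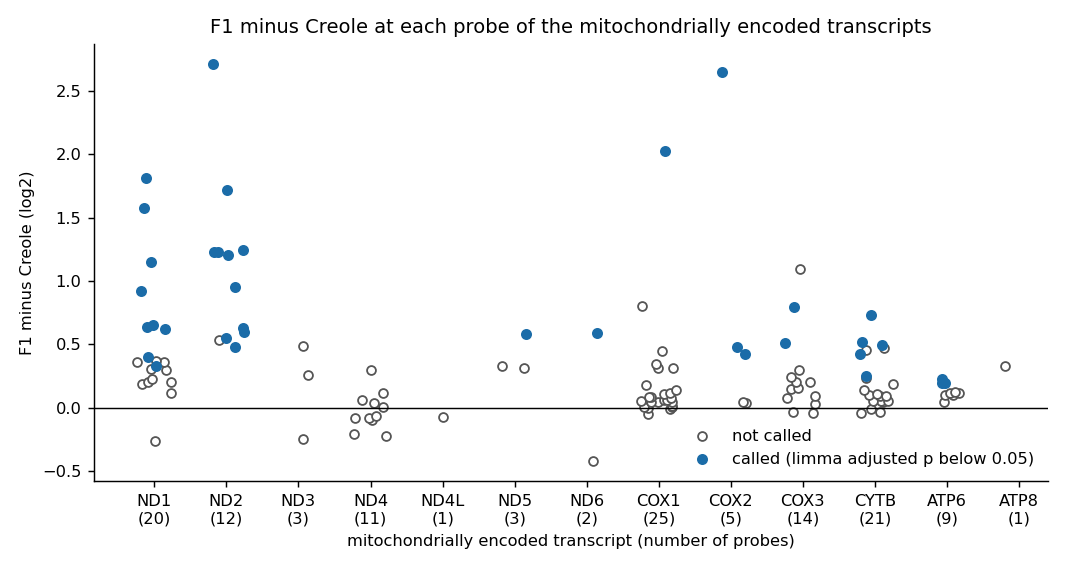
F1 minus Creole difference (log2, vertical axis) of each of the 127 probes of mitochondrially encoded transcripts, by transcript with its number of probes; filled points were called (limma adjusted p below 0.05). All 36 called probes lie above zero, and within COX1, COX2 and COX3 single probes lie far above the rest.

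Sequences of overlapping probes are shown because they place neighbouring letters of 1 transcript beside their differences. The pair of COX2 probes shares 48 bases with a single base that differs, in capitals in each: A33T, counted from 1 at the 5′ end of the first probe. Read 5′ to 3′ as printed on the array:
COX2 A_72_P746371: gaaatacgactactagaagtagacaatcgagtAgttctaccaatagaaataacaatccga
COX2 A_72_P751248: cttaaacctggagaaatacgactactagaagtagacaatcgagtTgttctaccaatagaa
The first probe differed by 2.65 log2 and the second by 0.42. A pair of ND1 probes shares 44 bases with 1 differing base (G1C, counted in the second probe printed), again in capitals, and differed by 0.92 and 1.81 log2:
ND1 A_72_P754234: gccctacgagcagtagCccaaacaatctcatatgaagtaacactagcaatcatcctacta
ND1 A_72_P745561: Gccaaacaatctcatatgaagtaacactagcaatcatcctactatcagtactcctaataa
In COX3 a chain of probes overlaps without a differing base. The middle probe holds 27 bases of the first at its end and 33 bases of the last at its start. Capitals mark the bases that the first and the last share with the middle probe:
COX3 A_72_P756742: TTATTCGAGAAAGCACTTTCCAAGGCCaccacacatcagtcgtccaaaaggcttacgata
COX3 A_72_P759028: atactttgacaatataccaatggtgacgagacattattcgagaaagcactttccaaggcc
COX3 A_72_P760010: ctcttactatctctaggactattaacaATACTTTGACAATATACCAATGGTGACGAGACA
The difference was -0.04 log2 at the first (limma adjusted p = 0.887), 0.51 at the middle (limma adjusted p = 0.0241) and 1.09 at the last (limma adjusted p = 0.0678). These overlapping probes of a single transcript thus gave unlike differences, but other overlapping pairs with 1 differing base gave like ones. CYTB A_72_P726128 and A_72_P740839 share 42 bases and were at 0.50 and 0.52 log2. ND1 A_72_P730638 and A_72_P775064 share 49 bases and were at 0.33 and 0.30.

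Levels on single arrays spread widely in Creole and little in F1. At ND2 (A_72_P719508) the F1 levels were 16.46 at the lowest, 16.59 at the median and 16.81 at the highest, and the Creole levels 12.55, 13.72 and 16.49. F1 exceeded Creole by 2.71 log2 (SE 0.46, limma adjusted p = 0.00208), with 9 of 11 F1 arrays above every Creole array. Of the Creole arrays only TN replicate 1 (16.49) lay within the F1 range, and HS replicate 1 followed at 16.10. Both were on slide 1, where the difference was 1.43 log2, against 2.65 to 3.63 on the other slides with both groups.

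At the first COX2 probe the F1 arrays ran from 16.64 through a median of 16.79 to 17.09. Creole TN replicate 1 was at 16.83 and HS replicate 1 at 16.44, 6 Creole arrays were between 14.33 and 15.51, and TN replicates 5 and 6 and HS replicates 5 and 6 were at 12.80, 12.71, 12.49 and 10.09. The F1 arrays therefore lay close together and the Creole arrays spread over several levels. The mean difference was 2.65 log2 (SE 0.49, limma adjusted p = 0.00568). The same 4 Creole arrays were the lowest at the last COX3 probe (14.64, 14.61, 14.44 and 12.78, the other Creole arrays between 15.98 and 16.99). They were not low at the first COX3 probe, where every Creole array lay between 18.32 and 18.53.

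COX1 (A_72_P762153) repeated the order seen at ND2: F1 from 17.14 through 17.40 to 17.57, Creole from 13.99 through 15.59 to 17.38, a difference of 2.03 log2 (SE 0.42, limma adjusted p = 0.0129). Creole TN replicate 1 and HS replicate 1 were again the highest Creole arrays, at 17.38 and 17.04. ND1 (A_72_P745561) differed by 1.81 log2 (SE 0.37, limma adjusted p = 0.0109), and here Creole TN replicate 1 (16.59) lay above all F1 arrays (15.84 to 16.26). In Large White the ND2 probe was at 16.14 to 16.33 on HS replicates 2 and 3 and TN replicates 1 and 2, and no higher than 14.30 on the other 8. F1 arrays varied little at these transcripts: the median SD over the 127 probes was 0.10 log2 in F1, 0.21 in Creole and 0.26 in Large White, and F1 had the smaller SD than Creole for 124 of 127 (97.6%), against 65.5% of all probes. Whether the probes read abundance or sequence was not tested.

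**Figure D2:**
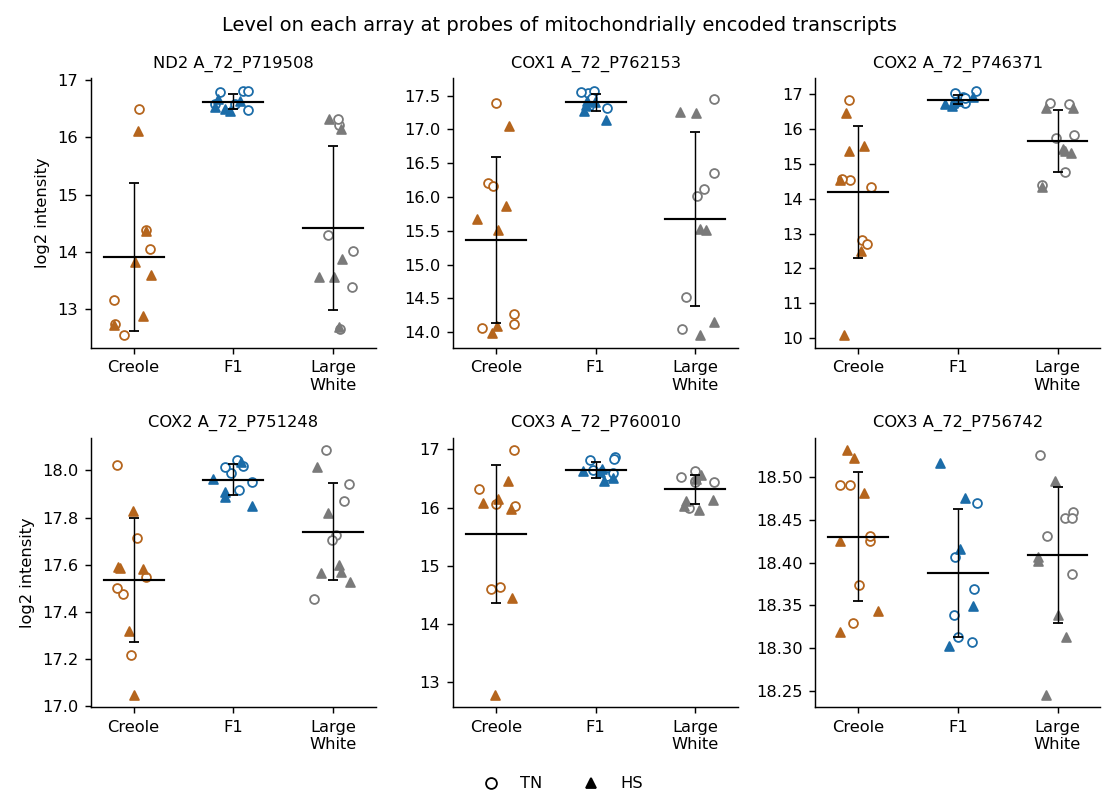
Level (log2 intensity) on each array at 6 probes of mitochondrially encoded transcripts in Creole, F1 and Large White; open circles are TN, filled triangles HS, bars the mean with its SD. F1 arrays sit close together at each probe while Creole arrays spread over up to several log2, and at COX3 A_72_P756742 the breeds overlap.

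The measured nuclear part of the chain carried no calls. Of 33 measured nuclear-encoded subunits of complex I none was called (11 above zero, 22 below, median -0.02 log2). Of 18 measured genes of complexes III and IV, with cytochrome c (CYCS), none was called either (median -0.01). Leaving out any of 5 arrays turned the sign of that median. No listed nuclear-encoded subunit of the ATP synthase was found under its symbol, so these were not examined. NDUFC1 was at -0.26 (SE 0.09, limma adjusted p = 0.232) and COX5A at -0.28 (SE 0.15, limma adjusted p = 0.609). TOMM5, a small part of the pore that imports proteins into mitochondria, was lower in F1, with a difference of -0.65 log2 (SE 0.14, limma adjusted p = 0.019), with 10 of 11 F1 arrays below every Creole array. Its call was lost under scaling to the spike-in controls. PLEKHD1 was higher in F1 by 1.23 log2 (SE 0.24, limma adjusted p = 0.00763). At this probe, named for a nuclear gene, F1 lay between 6.91 and 7.82. Only Creole TN replicate 1 (7.76) and HS replicate 1 (6.93), the Creole arrays high at ND2, fell within that range. Large White split as at ND2: HS replicates 2 and 3 and TN replicates 1 and 2 were at 6.96, 7.38, 7.42 and 7.18. Its other arrays lay between 5.58 and 5.95. What the PLEKHD1 probe reads was not tested.

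Outside the mitochondrial genome the smallest p belonged to C1D, whose product works with the nuclear exosome, the complex that trims and degrades RNA. It lies outside the naming rule and was chosen after its values were seen. C1D was between 9.18 and 9.88 in F1 (median 9.49) and between 8.62 and 9.05 in Creole (median 8.71). No F1 array overlapped a Creole array. The difference was 0.78 log2 (SE 0.06, limma adjusted p = 1.28e-09), 0.86 at TN and 0.68 under HS, and 0.56 to 0.92 within the 4 slides. Large White was at 9.86 ± 0.11 (SD, n = 12). The other C1D probe differed by -0.00 log2, so the call rests on 1 probe.

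TRIM13, a ubiquitin ligase of the endoplasmic reticulum, was the named gene without overlap in the other direction. F1 ran from 9.17 through 9.35 to 9.59 and Creole from 9.65 through 9.72 to 9.88, a difference of -0.38 log2 (SE 0.05, limma adjusted p = 0.000138). Another of its 3 probes was called too, at -0.29.

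Genes of antigen presentation and of the interferon response mostly had differences above zero, and few were called. SLA-3, a classical class I molecule that presents peptides to T cells, had 3 of 8 probes called (1.04 to 1.31 log2), and the other 5 were also above zero. At the probe with the largest of these (A_72_P517623) F1 ran from 10.17 through 11.09 to 12.29 and Creole from 8.49 through 9.64 to 11.46, with 5 Creole arrays within the F1 range. The difference was 1.31 log2 (SE 0.28, limma adjusted p = 0.0157), 0.82 at TN and 1.85 under HS. This call was lost with spike-in scaling, and also with only F1 and Creole arrays in the fit. Class I genes are highly variable in sequence and near copies of each other, so such probes may read alleles or relatives unequally. Of the 16 measured genes for class I and peptide loading, 14 lay above zero at their brightest probe, with a median of 0.12 log2.

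XAF1, an interferon-induced antagonist of an apoptosis inhibitor, was called at both of its probes. Levels were 7.88, 9.25 and 9.65 in F1 (lowest, median, highest) and 6.82, 7.96 and 8.77 in Creole. The groups overlapped, with 8 of 11 F1 arrays above every Creole array, and differed by 1.21 log2 (SE 0.22, limma adjusted p = 0.00558). Within slides the difference ranged from 0.35 to 2.14. MX2, an antiviral GTPase, was higher by 0.80 log2 (SE 0.20, limma adjusted p = 0.0484), a call lost under 6 of 12 alternatives and without any 1 of 19 arrays. All 26 measured interferon-stimulated genes lay above zero, with a median of 0.32 log2, beside a median of -0.01 over all genes; with scaling to the spike-in controls 24 did. Of the 26, MX2 and XAF1 were called at their brightest probe, beside 36 of all 9489 genes with a symbol.

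LGALS9, galectin 9, a lectin that regulates T cells, was called at all 5 of its probes, from 0.66 to 0.90 log2. These probes are not all separate readings: A_72_P179706 and A_72_P552166 hold the same 60 bases. The probe with the largest difference overlaps each of them over 56 bases, with 1 differing. At the probe with the largest difference F1 ran from 11.57 to 12.98 and Creole from 10.07 to 12.21, with 4 Creole arrays within the F1 range (limma adjusted p = 0.0314). The call was lost under 4 of 11 alternatives and without any 1 of 9 arrays. SAMHD1, which limits the nucleotides a virus can use, was at 0.64 log2 (limma adjusted p = 0.0449), and JAK2, a kinase of cytokine receptors, was called at 1 probe (0.44 log2, limma adjusted p = 0.0475), whereas 2 probes that share 24 bases with it were at -0.11 and -0.13. Both genes lie outside the naming rule and were chosen after their values were seen.

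Leukocyte markers were examined beside these genes. Of 22 measured, 19 lay above zero and none was called, with a median of 0.25 log2, of 0.66 at TN and of -0.06 under HS. The median of the leukocyte markers rested in part on single arrays: it was 0.12 without Creole TN replicate 1 or F1 TN replicate 2, 0.16 without Creole TN replicate 6 and 0.38 without Creole HS replicate 1. The mean level of the list ran from 7.38 to 9.22 on Creole TN arrays, from 8.23 to 9.75 on F1 TN, from 8.65 to 9.99 on Creole HS and from 8.80 to 9.26 on F1 HS. Creole TN replicate 1 was the lowest and Creole HS replicate 1 the highest of all these arrays. Of the 22 genes, 18 were well above background on every F1 and Creole array and none was absent from all of them. The interferon list had a median of 0.43 at TN and 0.20 under HS, MHC class I 0.27 and 0.01, and MHC class II, of which 8 of 9 lay above zero and none was called, 0.37 and -0.02. The part of leukocytes in these differences was not tested.

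Several genes with probes called lower in F1 lie in 1 stretch of the annotation, though not side by side. USF1, a transcription factor of lipid and glucose genes, DUSP12, a protein phosphatase, and UFC1, the conjugating enzyme of the ubiquitin-like UFM1, are separated in the Sscrofa11.1 annotation, with 6 protein-coding genes between UFC1 and USF1 and 19 between DUSP12 and UFC1. Elsewhere some called genes as near each other differed in opposite directions, as at COL6A3 and RAMP1, JAK2 and PLGRKT, or RCHY1 and SCARB2. Others differed in the same direction, as at AIG1 and HEBP2, FNTB and FUT8, or PNPLA4 and PRPS2. These examples were chosen after their values were seen, and whether called genes gather in the annotation was not tested. USF1 was called at 4 of 5 probes. At the leading probe F1 ran from 7.31 through 7.83 to 8.86 and Creole from 8.35 through 9.18 to 9.48, a difference of -1.16 log2 (SE 0.16, limma adjusted p = 0.000131). A second probe with the same 60 bases gave -1.12.

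In F1, 9 arrays lay below every Creole array at USF1 and the other 2, TN replicate 6 (8.86) and HS replicate 5 (8.81), lay within the Creole range. These same 2 arrays were the exceptions at DUSP12, at 10.048 and 10.097, where the other F1 arrays lay between 8.68 and 9.04. In Creole, TN replicate 1 was the exception, at 9.19 where the others were at 10.02 to 10.36. DUSP12 differed by -0.96 log2 (SE 0.13, limma adjusted p = 0.000138), and both of its probes were called. Large White was at 7.77 ± 0.30 for USF1 and 9.01 ± 0.11 for DUSP12 (SD, n = 12), near the lower F1 arrays. Within slide 4, which held both F1 exceptions, the differences were -0.51 and -0.44, against -1.36 to -1.39 and -1.04 to -1.28 on the other slides.

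UFC1 was called at 1 of 9 probes (-0.43 log2, limma adjusted p = 0.0468), and 3 probes that overlap it over 48 to 60 bases with 2 or 3 differing bases were at 0.01, 0.06 and 0.15. The UFC1 call was lost under median and spike-in scaling, with only F1 and Creole arrays and without any 1 of 17 arrays. NPSR1, the receptor of neuropeptide S, had a fitted difference of -1.58 log2 (SE 0.32, limma adjusted p = 0.0105). It was well above background on 5 of 11 F1 arrays and 10 of 12 Creole arrays, so its F1 level was mostly at background and its fitted size is uncertain. The call was lost with only F1 and Creole arrays. F1 TN replicate 6 (7.26) and HS replicate 5 (7.05) were again its highest F1 arrays. Within slide 4 the NPSR1 difference was 0.11. PHACTR3, a regulator of protein phosphatase 1 and actin, was at -0.75 (SE 0.17, limma adjusted p = 0.0355), with the same 2 arrays as the highest of F1 TN and F1 HS. PHACTR3 lost its call without any 1 of 13 arrays.

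Redox enzymes were called in both directions. AKR1C1, an aldo-keto reductase of steroids and reactive aldehydes, had 5 of 7 probes called, 3 lower (-0.63 to -0.73 log2) and 2 higher (1.55 and 1.62 log2). The higher pair shares 35 bases with a single differing base (C19T, counted in A_72_P440651). Stretches of 30 bases from that overlap are shown, the differing base in capitals:
AKR1C1 A_72_P440651: cttcatgccattgcCaaaaagcacaagcaa
AKR1C1 A_72_P569209: cttcatgccattgcTaaaaagcacaagcaa
The members of the AKR1C group are near copies, so which of them each probe reads is uncertain. At A_72_P440651, 8 F1 arrays lay between 8.11 and 8.97, above every Creole array (5.71 to 6.54), and the other 3, TN replicate 4, HS replicate 1 and HS replicate 5, were at 5.44, 5.87 and 5.64. The mean difference was 1.62 log2 (SE 0.37, limma adjusted p = 0.0299), a call lost under 4 of 11 alternatives and without any 1 of 10 arrays. At the lower probe A_72_P223422 the same 3 F1 arrays were the highest of their breed (12.06, 12.27 and 12.38) and the other 8 lay between 11.26 and 11.83, with Creole between 12.13 and 12.91. There the difference was -0.73 log2 (SE 0.12, limma adjusted p = 0.00107). So an F1 array that was high at 1 of these probes was low at the other. In Large White, TN replicate 3 alone was above every F1 and Creole array at A_72_P440651, and it was the lowest of its breed at A_72_P223422 (11.74). AKR1E2, the next gene in the annotation and chosen after its values were seen, was higher by 0.70 log2 (limma adjusted p = 0.0252).

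SELENOF, a selenoprotein of the endoplasmic reticulum, was lower at 1 custom probe and not at its other 5, which lay between -0.24 and -0.08 log2. Of these, 1 shares 30 bases with it, with 2 differing bases (T4A and T26A, counted in the first printed) in capitals:
SELENOF A_72_P562884: tctTccattgatcagtctcttaccgTgagg
SELENOF CUST_56_PI427286967: tctAccattgatcagtctcttaccgAgagg
At the custom probe Creole lay between 8.69 and 10.04. F1 TN replicates 1, 2 and 6 and HS replicates 3, 4 and 5 were at 8.80 to 9.42, within or near the Creole levels, and the other 5 F1 arrays at 5.51 to 6.11, where Large White was (5.83 ± 0.41, SD, n = 12). The mean difference of -1.83 log2 (SE 0.41, limma adjusted p = 0.0226) gives an F1 mean of 7.61, which is the level of no F1 array. Within slides it ran from -2.96 to 0.19, and the call was lost under 75th percentile scaling, with only F1 and Creole arrays and without F1 TN replicate 3 or 5.

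PTGR1, a reductase of prostaglandins and leukotrienes, was at -0.95 log2 (SE 0.20, limma adjusted p = 0.0122) and kept its call under all 12 alternatives and each left-out array, though its 3 other probes lay between -0.11 and -0.01. OXNAD1, an oxidoreductase-like protein, was called at 3 of 4 probes, with -0.58 log2 (limma adjusted p = 0.023) at the largest of the called, a call lost under 75th percentile and spike-in scaling and without F1 TN replicate 1. Over the 35 measured antioxidant and aldo-keto reductase enzymes the median was -0.02, with AKR1C1 and SELENOF the genes with a called probe.

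Further genes higher in F1 were TAOK3, a stress kinase, by 0.95 log2 (SE 0.21, limma adjusted p = 0.0191), HEBP2, a haem-binding protein, by 0.92 (SE 0.18, limma adjusted p = 0.00735), PNPLA4, a lipase and retinol esterase, by 0.85 (SE 0.17, limma adjusted p = 0.0105), and PRPS2, which makes the precursor of nucleotides, by 0.56 at 2 of 3 probes. Scaling to the spike-in controls ended the calls of TAOK3, HEBP2, PRPS2 and FNTB. For TAOK3 10 of 11 F1 arrays lay above every Creole array, and for PNPLA4 9. PNPLA4 and PRPS2 have 14 protein-coding genes between them in the annotation. FNTB, the beta subunit of the farnesyltransferase, was called at both probes (0.56 and 0.53 log2), and FUT8, which adds the core fucose to glycoproteins and was chosen after its values were seen, was at 0.72 (limma adjusted p = 0.0018), with 1 gene between them. FNTB was at 9.20 ± 0.34 in F1, 8.64 ± 0.31 in Creole and 8.58 ± 0.28 in Large White, and its call was also lost with only F1 and Creole arrays and without F1 HS replicate 2, F1 TN replicate 3 or Creole TN replicate 4.

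KIT, the receptor of stem cell factor on pigment and mast cells, was called at 2 of 5 probes. F1 ran from 7.98 through 8.52 to 9.40 and Creole from 7.29 through 7.77 to 8.401, with 2 Creole arrays inside the F1 range. The difference was 0.81 log2 (SE 0.18, limma adjusted p = 0.0251), and Large White was at 9.69 ± 0.62 (SD, n = 12). Another probe with the same 60 bases gave 0.78 (limma adjusted p = 0.0514), on the other side of the threshold, and the KIT call was lost without Creole TN replicate 3, F1 HS replicate 4 or F1 TN replicate 4. None of the other 7 measured pigment and mast cell genes was called. COL6A3, a chain of the collagen VI microfibrils around fibres, was called at 1 of 9 probes (0.41 log2, SE 0.09, limma adjusted p = 0.0129) and was the only called gene of 28 for connective tissue and matrix, whose median of 0.08 turned to -0.00 without Creole TN replicate 1. The other 8 COL6A3 probes lay between 0.02 and 0.31 log2. A called probe without a symbol, A_72_P443393, shares 30 bases with a COL6A3 probe and was at 0.38 log2 (limma adjusted p = 0.0241). The COL6A3 call was lost under median and spike-in scaling and with no temperature term.

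Lower in F1 were also C1GALT1, which builds the core of mucin-type glycans (-0.66 log2, limma adjusted p = 0.00107), KCTD9, an adaptor of ubiquitin ligases (-0.47, limma adjusted p = 0.00698), and RRP36, a factor of ribosome assembly (-0.42, limma adjusted p = 0.0437). C1GALT1 was well above background on 1 of 11 F1 arrays and 11 of 12 Creole arrays, so that here too the F1 level was mostly at background and the size of the difference is uncertain. RRP36 was no longer called under 4 of 12 alternatives or when any 1 of 14 arrays was left out, and KCTD9 under spike-in scaling. The ribosomal proteins RPL10A (-0.19 log2, limma adjusted p = 0.0294) and RPLP0 (-0.17, limma adjusted p = 0.0468) were called at 1 of 11 and 1 of 14 probes and lost the call under 75th percentile, median and spike-in scaling and with only F1 and Creole arrays. Of 67 measured ribosomal proteins 49 lay below zero, with a median of -0.05 log2.

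**Figure D3:**
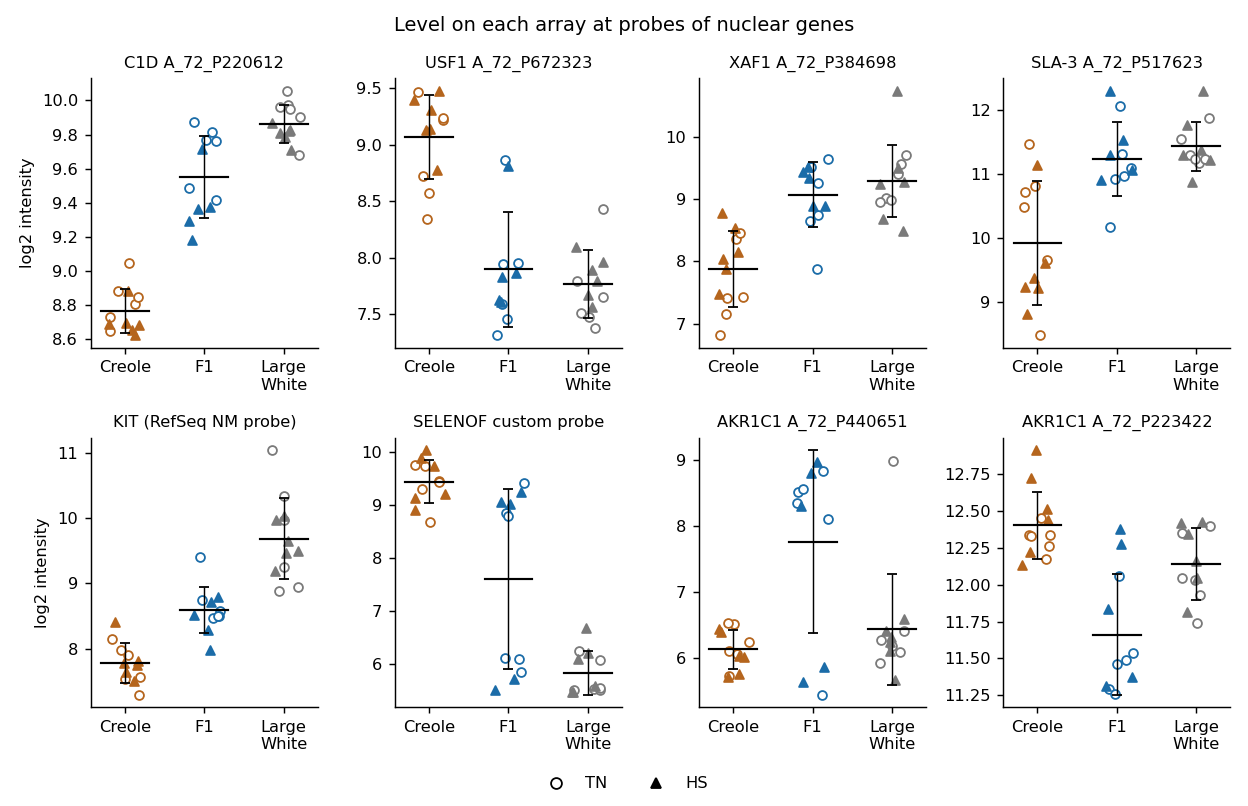
Level (log2 intensity) on each array at 8 probes of nuclear genes in Creole, F1 and Large White; open circles are TN, filled triangles HS, bars the mean with its SD. F1 and Creole do not overlap at C1D, 2 F1 arrays sit at the Creole level at USF1, and F1 arrays fall at separate levels at SELENOF and AKR1C1.

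Muscle pathways carried few or no calls. None was called among the measured genes of glycolysis and glycogen use (27 genes, median -0.08 log2), the TCA cycle (25, -0.06), fatty acid uptake and oxidation (22, 0.02), slow fibres (12, 0.09), fast fibres (15, -0.01), calcium handling and creatine kinase (24, -0.03), myogenesis (17, 0.08), the IGF axis (19, 0.03), atrophy (17, 0.09), heat shock proteins (30, 0.07), proteasome subunits (30, -0.00) or polyamine metabolism (12, 0.07). Other lists without a call were adipocyte and lipogenic genes (22, -0.12), endothelium (18, 0.04), blood cells (6, 0.06), nerve (12, -0.01), clock genes (15, -0.09), SOCS, STAT and immediate-early genes (27, 0.07) and glucocorticoid-responsive genes (11, 0.02). Over all 9489 genes with a symbol the median was -0.01 log2 and 36 were called at their brightest probe. The medians of fatty acid, fast fibre, IGF, endothelial, nerve, glucocorticoid and proteasome genes changed sign under at least 1 alternative, and for pigment genes (0.04) under spike-in scaling; that of blood genes did so without either of 2 arrays.

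Of the genes in those lists, CAPN3, a protease of the sarcomere, came closest to the threshold at 0.83 log2 (SE 0.21, limma adjusted p = 0.0514). This rests on 1 probe: the 3 other CAPN3 probes lay between -0.13 and -0.11 log2. PDK4, a kinase that shuts off pyruvate dehydrogenase, was at 0.29 (SE 0.64, limma adjusted p = 0.975), IGF2, a growth factor, at -0.41 (SE 0.32, limma adjusted p = 0.829), and the embryonic myosin MYH3 at 0.76 (SE 0.63, limma adjusted p = 0.852). IGF2 levels were split. F1 HS replicate 3, Creole TN replicate 6 and Creole HS replicates 5 and 6 were at 17.68, 17.75, 17.56 and 17.46. The other F1 and Creole arrays lay between 14.36 and 15.55, and Large White between 17.1 and 17.9. The standard errors of PDK4 and MYH3 were far above the median of 0.12 among called probes, so differences of the size fitted for these genes were not detectable here.

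**Figure D4:**
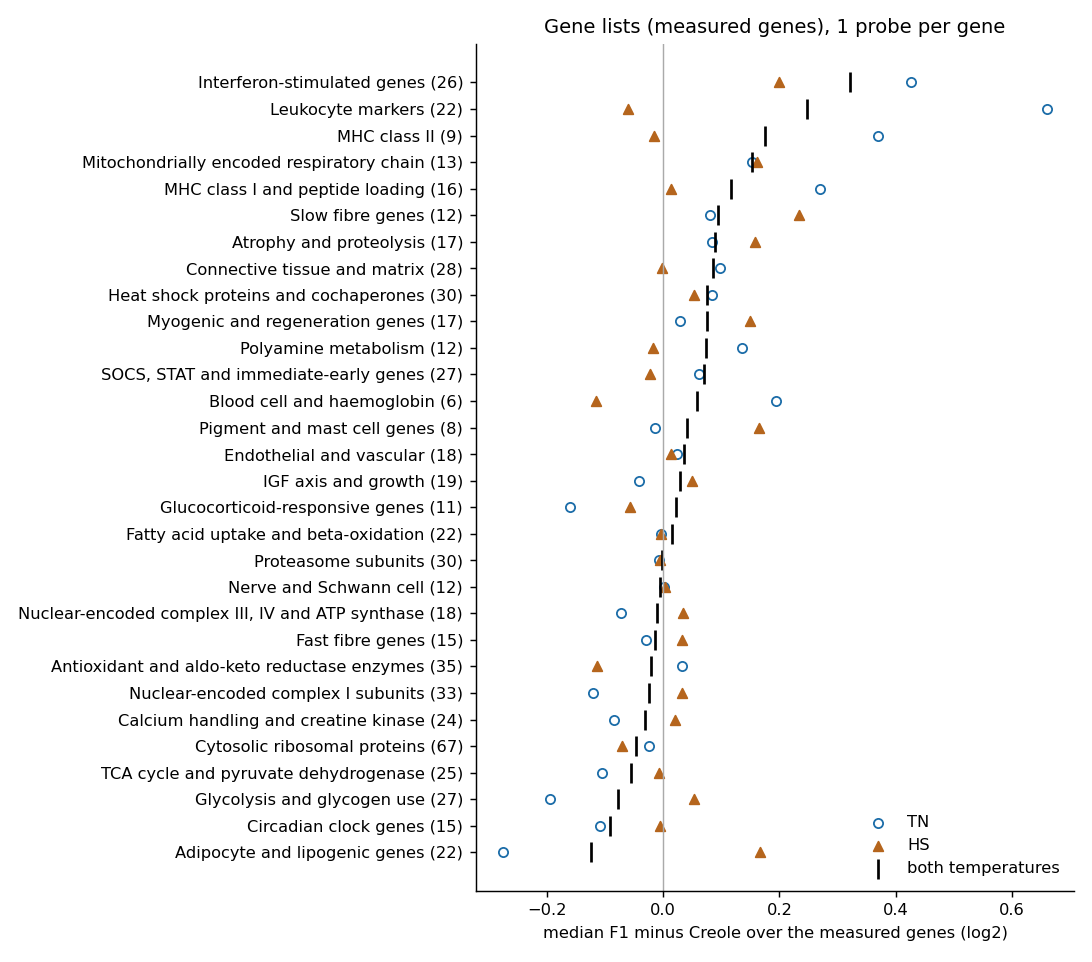
Median F1 minus Creole difference (log2, horizontal axis) over the measured genes of each list, with 1 probe per gene, at TN (open circles), under HS (triangles) and over both (bars). Interferon-stimulated genes lie above zero at both temperatures (0.43 and 0.20), while leukocyte markers are at 0.66 at TN and -0.06 under HS.

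Temperature was examined separately. At TN 32 probes (0.0787%) were called, 13 higher (0.0320%) and 19 lower (0.0467%) in F1, and 26 of them were also called over both temperatures. Under scaling to the spike-in controls TN gave 6 higher and 4 lower, and with only F1 and Creole arrays 26 higher and 24 lower. The count ranged from 13 without F1 TN replicate 5 to 53 without F1 TN replicate 6, the array at the Creole level for USF1. Under HS 3 probes (0.00738%) were called, all higher: C1D and the unnamed A_72_P097651 and A_72_P352383, at 0.68, 2.44 and 0.70 log2. These 3 were also called at TN. Median scaling gave 4 higher and 6 lower under HS and scaling to the spike-in controls 1 higher and 5 lower, and without F1 HS replicate 5, the other array at the Creole level for USF1, 11 were called.

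No probe was called for a change of the F1 minus Creole difference with temperature (0 of 40649, 0%). In limma the smallest adjusted p was 0.827, and 2020 probes (4.97%) had an unadjusted p below 0.05. The unequal counts at TN and HS are not shown to be a difference between temperatures. The standard error of the difference was 0.16 log2 at TN and 0.17 under HS at the median called probe.

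**Figure D5:**
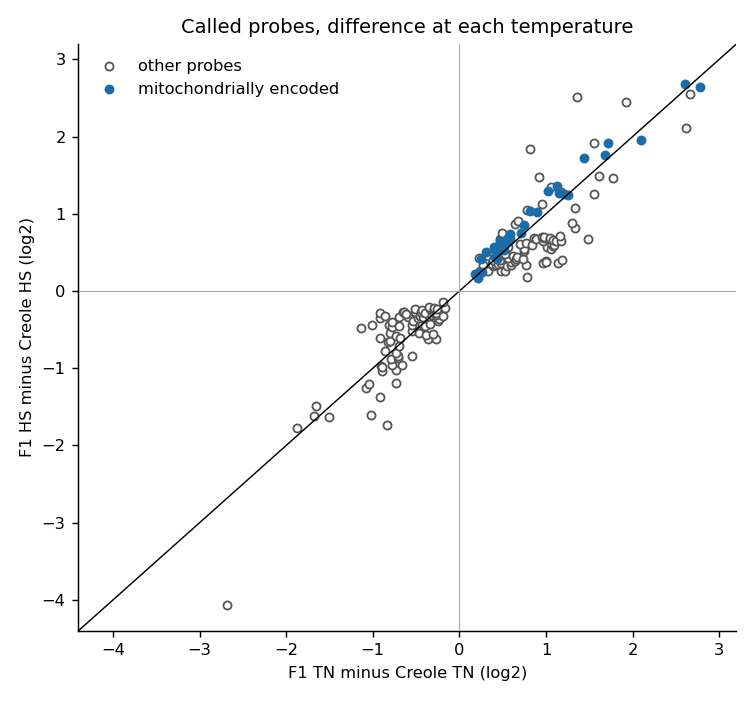
F1 minus Creole difference under HS (vertical axis, log2) against that at TN (horizontal axis, log2) for the 207 probes called over both temperatures; filled points are mitochondrially encoded transcripts and the diagonal marks equal differences. Every point lies in the quadrants of equal sign, which the choice of probes by their mean over both temperatures makes likely by itself.

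Among the 93 called probes without a symbol, 3 are described here, chosen after their values were seen. A_72_P097651 lay between 7.33 and 9.70 in F1 and between 5.30 and 7.77 in Creole, where it was well above background on 7 of 12 arrays, and differed by 2.17 log2 (SE 0.26, limma adjusted p = 1.86e-05). A_72_P788198 differed by -3.35 log2 (SE 0.82, limma adjusted p = 0.0492): 9 Creole arrays were between 9.82 and 12.31 and 3 between 5.50 and 5.84, while 2 F1 arrays were at 11.38 and 11.31, the other 9 between 4.91 and 6.29, and every Large White array at or below 6.62. A_72_P379563, at 2.37 log2, shares 30 bases with a probe of ND2.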

How the data were processed

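The authors labelled RNA with Cy3, hybridised 1-colour Agilent porcine arrays and read them with Feature Extraction 10.10.1.1, per the file headers. Spot intensity, on a linear scale, is what the deposited scanner output holds. The deposited table holds log2 values of 40649 expressed probes, which the authors quantile-normalised between arrays; 59 values were missing. Each column correlated best with its own array's scanner file (lowest Pearson r 0.999). No spot was saturated, and the number of arrays limits the precision.

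F1 minus Creole was fitted per probe with limma 3.58.1 in R 4.3.3 (two-sided, empirical Bayes, Benjamini-Hochberg over all probes, called at 0.05) with additive terms for breed and for temperature over all 35 arrays, the fixed part of the study's model. The labels give no litter, pen or slaughter day, so none entered the fit. Contrasts at TN, under HS and of their change used 1 mean per group. The fit was tested on simulated arrays of independent normal values with 1 SD per probe. Littermates, unequal spread between breeds and split levels were not simulated, so that test does not cover them. Probes were named by accession, then by the name in the files, through RefSeq (Sscrofa11.1, for names and gene order only); 20280 probes (49.9%) got a symbol, for 9489 genes. Probes were not mapped, so no position is given. Lists use each gene's probe of highest mean. Well above background is the scanner's own flag.

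Named were the 12 largest rises and falls with equal sign at both temperatures, genes with at least 2 called probes in 1 direction (at most 25), a fixed set of genes, and called members of 30 lists or their 2 smallest p. Members and lists were chosen with earlier results of these data known. Alternatives were recomputation from the scanner files, 3 other scalings, normexp (offset 50), a dim-probe filter, only F1 and Creole arrays, slide as a block, array weights, array brightness as a covariate, 1 probe per symbol, no temperature term, and each array left out.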

Additional observations from a re-analysis of the deposited data

Results flagged for a closer look

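In groups of 5 or 6 arrays, a single array lay far from the rest in 19 of 156 combinations of 39 called named probes with a group. For independent probes chance gives about 1 in 20, or 7.8. Several of these probes share their outlying arrays, so 7.8 is not a firm expectation. The value given is the gap to the nearest array divided by the range of the group. No explanation was tested.

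F1 TN replicate 6 and F1 HS replicate 5 recur among them, each the highest of its group. For DUSP12 the values were 0.806 and 0.791, for USF1 0.792 (HS replicate 5), for NPSR1 0.863 (TN replicate 6, 7.26 against 5.11), for PHACTR3 0.778 (TN replicate 6) and for C1GALT1 0.953 (HS replicate 5, 5.97 against 5.01).

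Creole TN replicate 1 and Creole HS replicate 1 also recur. Creole TN replicate 1 was the lowest of its group at DUSP12 (0.785) and the highest at COX3 A_72_P750221 (0.631, 17.32 against 16.44). Creole HS replicate 1 was the highest at CYTB A_72_P355338 (0.689, 17.96 against 17.35), PLEKHD1 (0.742, 6.93 against 5.90) and SLA-3 (0.658).

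F1 TN replicate 4 was the highest of its group at AKR1C1 A_72_P223422 (0.657), the lowest at AKR1C1 A_72_P440651 (0.786, 5.44 against 8.11) and the highest at KIT (0.711). The other single arrays were Creole HS replicate 2 highest at KIT (0.658), Creole HS replicate 5 lowest at C1GALT1 (0.67), F1 TN replicate 2 highest at COL6A3 (0.65), F1 TN replicate 1 lowest at KCTD9 (0.632) and F1 HS replicate 1 highest at TOMM5 (0.768).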

How the results depend on the processing

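Over both temperatures the 207 calls became 98 under scaling to the spike-in controls, 456 with array weights, 330 with array brightness as a covariate and 30 of 9489 with 1 probe per symbol, and stayed within 1.5 times under the 8 other alternatives (149 to 264, slide as a block included). Leaving out 1 array gave 147 to 241. At TN the 32 calls became 17 with median scaling, 10 with spike-in scaling, 50 with only F1 and Creole arrays, 78 with slide as a block, 223 with array weights, 49 with brightness and 17 with 1 probe per symbol, and 13 to 53 without 1 array. Under HS the 3 calls became 10 with median scaling, 6 with spike-in scaling, 1 with only F1 and Creole arrays, 37 with array weights and 13 with brightness, and 2 to 11 without 1 array. The change with temperature gave 0 calls throughout. The causes were not tested.

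No called named probe reversed. Of 449 alternative values of the 39 called named probes 387 kept the call and 62 lost it, most under spike-in scaling (18), 75th percentile scaling (13) and only F1 and Creole arrays (11), and of 897 values without 1 array 132 lost it. The calls of 13 probes held throughout. The reversals were in 3 uncalled probes. SOD2 went to -0.0067 under spike-in scaling. CYCS, at 0.01, went to -0.0237 (75th percentile), -0.0321 (median scaling), -0.0676 (spike-in), -0.0096 (slide), -0.0193 (weights) and -0.039 (brightness), and to between -0.094 and 0.0821 without 1 array. PDK4 ranged from -0.0512 to 0.6048, negative without Creole TN replicate 1. The dim probes of C1GALT1, NPSR1 and PLEKHD1 moved by over 1.5 times, to between -0.36 and -2.03, -1.08 and -3.03, and 0.90 and 1.92. Spike-in scaling moved the median of all probes under HS from 0.00 to -0.10. No paired analysis was possible because the replicate numbers follow accession order and pair no samples.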
